A study of Mus musculus with 13 samples.

Results

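The MHC class II genes studied here encode the proteins that load peptides onto class II molecules and show them on the cell surface, together with their main regulator. The 7 genes Cd74, H2-Aa, H2-Ab1, H2-Eb1, H2-DMa, H2-DMb1 and Ciita were taken by name, and all 11 of their array probes were used, of 25697 probes for 16593 named genes. H2-Ab1 had 4 probes, Cd74 had 2 and each of the other 5 genes had 1. The study followed purified islet progenitors from mouse pancreas through differentiation, with adult islets as its positive control and embryonic stem cells as its negative control, to learn how differentiation works at the molecular level. RNA was read on single-colour Illumina bead arrays. All samples are labelled C57BL/6. Embryonic stem cells, with the source name W9.5, gave 2 arrays and adult islets also gave 2. Islet progenitors gave 4 arrays at day 0 of differentiation, 3 arrays at day 1 and 2 arrays at day 4. The labels describe no genetic change or added agent, give no age, and do not say how the progenitors were purified or whether replicates came from separate animals or cultures. P-values therefore speak only to the spread among these arrays, and that spread could be technical.

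Class II molecules are pairs of an alpha and a beta chain that carry peptides from engulfed material to CD4 T cells. H2-Aa and H2-Ab1 encode the alpha and beta chains of I-A, and H2-Eb1 encodes the beta chain of I-E, whose alpha chain gene, H2-Ea, is not expressed in C57BL/6 mice. Cd74, the invariant chain, fills the groove of a new molecule and steers it to endosomes, where H2-DM, a dimer of H2-DMa with a beta chain such as H2-DMb1, exchanges the remaining invariant chain fragment for other peptides. Ciita is the co-activator that switches these genes on. It is recruited to promoters by a complex of RFX, CREB and NF-Y factors bound to conserved X and Y boxes. Dendritic cells, macrophages and B cells express class II genes constitutively, and interferon gamma induces them in many other cells. In bulk RNA, fewer cells of a type and less RNA per cell cannot be told apart.

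The shared promoter layout is shown because H2-Aa and H2-Eb1, which are both high in adult islets below, carry it, as do other class II genes that stay at or near background. RefSeq promoters (assembly GRCm38.p6, 250 bases before to 50 after a start) were in the table for 4 of the 7 genes, and 3 of these 4 held the pair of motifs printed in capitals: an X box core read as GNAAC, then 23 to 26 bases, then the Y box TGATTGG. In gene orientation, 5′ to 3′, the stretches are as follows.
H2-Aa, chr17:34287859-34287912, minus strand: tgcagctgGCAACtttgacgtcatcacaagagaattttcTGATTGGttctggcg
H2-Eb1, chr17:34305768-34305820, plus strand: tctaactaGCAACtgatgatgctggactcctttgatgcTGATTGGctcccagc
H2-DMb1, chr17:34153089-34153142, plus strand: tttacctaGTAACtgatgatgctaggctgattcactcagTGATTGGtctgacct
H2-Oa, chr17:34092295-34092348, plus strand: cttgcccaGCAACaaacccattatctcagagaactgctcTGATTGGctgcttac
H2-Ob, chr17:34238810-34238860, plus strand: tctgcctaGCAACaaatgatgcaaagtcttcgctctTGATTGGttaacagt
H2-Eb2, chr17:34325535-34325587, plus strand: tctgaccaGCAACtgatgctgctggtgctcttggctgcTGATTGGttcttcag

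The last 3 stretches belong to other class II genes of the same region, H2-Oa and H2-Ob, which encode the H2-O inhibitor of H2-DM, and H2-Eb2. The Y box began 50, 61 and 63 bases before the start of H2-Aa, H2-Eb1 and H2-DMb1. The pair, searched on both strands, was in 36 of 32851 promoters of the same length (0.11%), the Y box alone in 7.82% and the X core alone in 84.8%. The motif letters and the spacing were chosen after these promoters had been read, so the share is a description. The 2 promoters listed for H2-DMa held neither the pair nor the Y box, which says only that these letters are not in those windows. The promoter listed for H2-DMb2, another class II gene, held the Y box but not the pair. Of 12 genes looked up, 8 had a promoter listed, and 6 of these 8 held the pair. In the order of genes on chromosome 17, H2-Oa, H2-DMa, H2-DMb2, H2-DMb1, H2-Ob, H2-Ab1, H2-Aa, H2-Eb1, H2-Eb2 and H2-Ea follow each other.

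Levels are log2 intensities as deposited, and a probe was read as above background where it exceeded 7.24. The array labels fit their marker genes: all 7 pluripotency genes were lower and all 5 islet hormone genes higher at day 0 than in embryonic stem cells, and 5 of 7 endocrine progenitor genes were lower in adult islets than at day 0. Between 43.9% and 46.1% of the probes were above background on each array, and arrays of a group correlated at 0.931 to 0.995 across the tested probes. Of 9 acinar genes, all measured on all progenitor and adult arrays, 6 were higher in adult islets than at day 0 and 1 was lower. Of all tested probes, 15.1% were called higher and 17.2% lower in that comparison, and 23.7% in each direction in day 0 against stem cells. The 2 stem cell arrays stood apart from each other, with an SD of 0.47 for the difference between them over all tested probes against 0.22 for the 2 adult arrays. The lysozyme Lyz1 read 11.53 in stem cell replicate 1 and 7.03 in replicate 2, and the class I light chain B2m read 12.28 and 9.41.

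In adult islets the transcripts for both I-A chains, the I-E beta chain and the invariant chain were abundant, while in progenitors at all 3 days and in stem cells they lay at or close to background. H2-Aa read 9.89 and 11.25 on the 2 adult arrays. Day 0 arrays gave 7.03, 7.05, 7.15 and 7.35, the day 1 arrays lay between 6.91 and 7.003, day 4 gave 6.96 and 6.90, and both stem cell arrays gave 6.97. Both adult arrays were thus above all 11 others, of which a single day 0 array passed background. The difference of adult islets from day 0 was 3.42 ± 0.27 (SE; adjusted p = 7.06e-06).

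**Figure D1:**
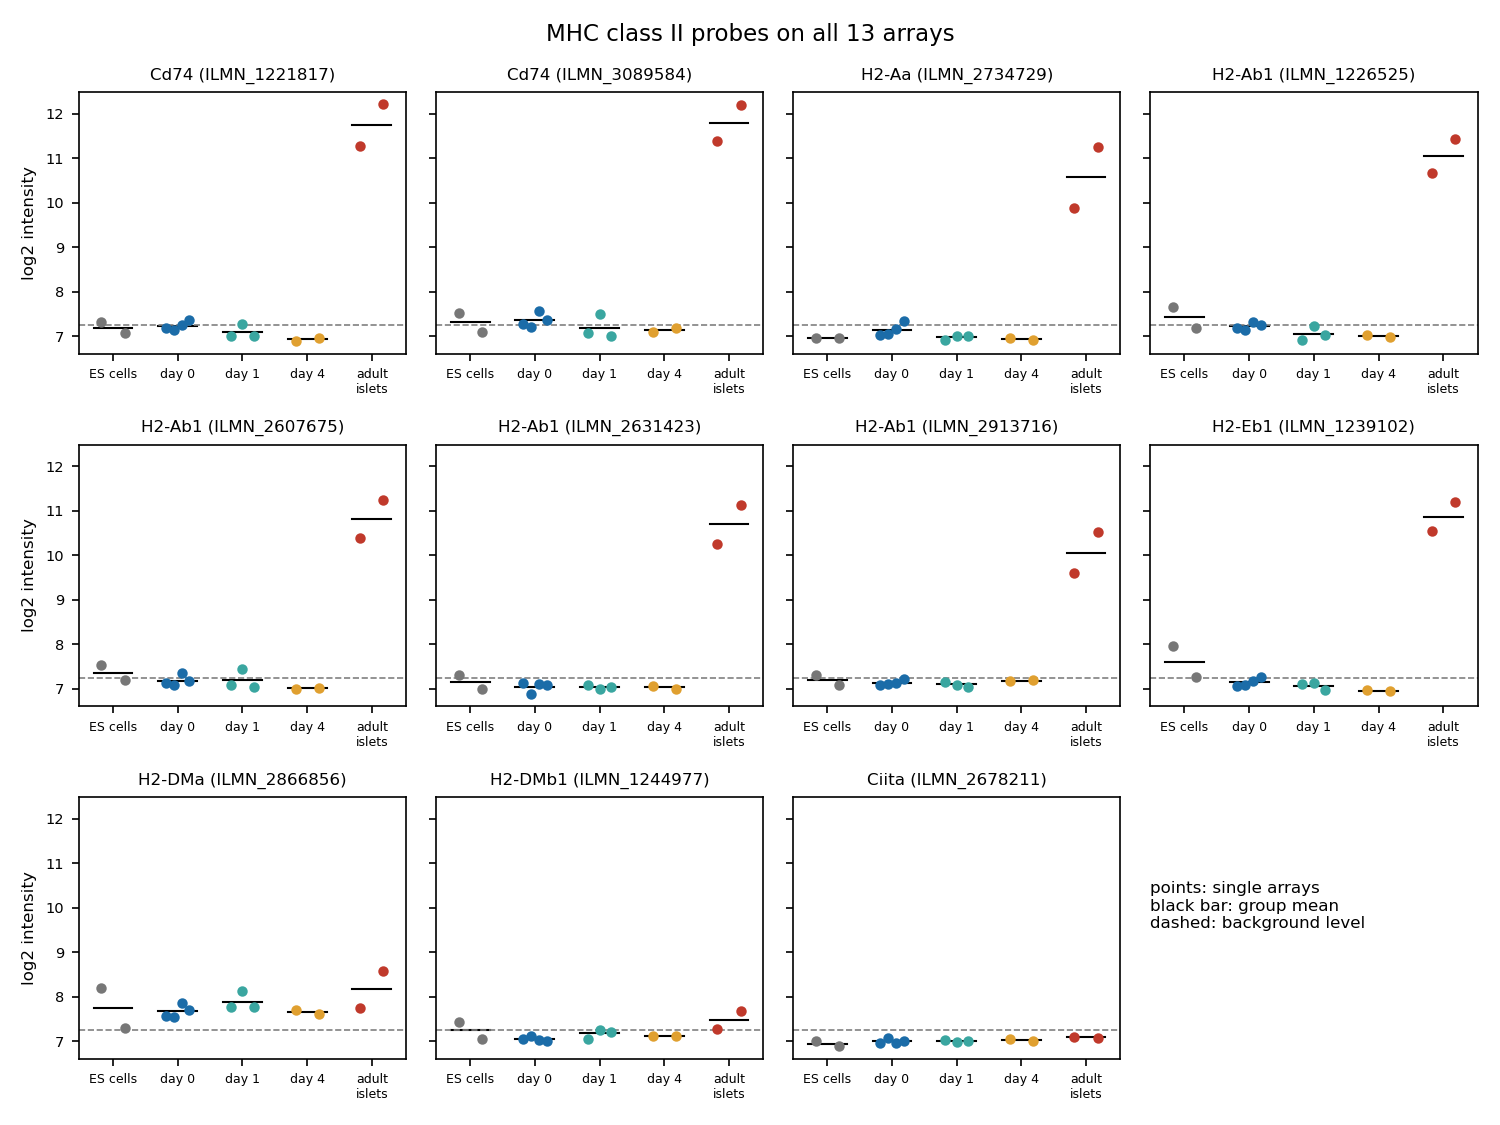
Log2 intensity (y axis, same scale in all panels) of the 11 class II probes on each of 13 arrays, by group (x axis); points are arrays, black bars group means, and the dashed line is the background level of 7.24. The 2 adult arrays sit between 9.60 and 12.22 for every probe of Cd74, H2-Aa, H2-Ab1 and H2-Eb1, those of H2-DMa and H2-DMb1 between 7.27 and 8.58, and Ciita stays under the line on all 13 arrays.

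H2-Ab1, the partner chain of H2-Aa, gave the same picture on 4 separate probes. Its brightest probe (ILMN_1226525) read 10.66 and 11.43 in adult islets and 7.18, 7.13, 7.32 and 7.24 at day 0. Day 1 arrays gave 6.92, 7.22 and 7.04, day 4 arrays 7.03 and 6.98, and stem cells 7.66 and 7.19. Adult and other arrays did not overlap, and stem cell replicate 1 was the highest of the others. Its adult difference from day 0 was 3.83 ± 0.20 (adjusted p = 3.09e-07). The other 3 probes differed by 3.63 ± 0.21 (ILMN_2607675), 3.65 ± 0.20 (ILMN_2631423) and 2.93 ± 0.19 (ILMN_2913716), with adjusted p of 7.67e-07, 4.12e-07 and 1.84e-06. For the last pair no day 0 array was above background, so those changes are at least 10.9-fold and at least 7.04-fold against the background level.

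H2-Eb1, the I-E beta chain, read 10.53 and 11.20 in adult islets. Day 0 arrays read 7.06, 7.08, 7.18 and 7.26, day 1 arrays 7.10, 7.14 and 6.97, day 4 arrays 6.97 and 6.94, and stem cells 7.95 and 7.26. The adult arrays were again apart from all others, and stem cell replicate 1 was the next highest. Adult islets exceeded day 0 by 3.72 ± 0.20 (adjusted p = 4.02e-07). H2-Ea, its alpha chain partner, was below background on all 13 arrays, between 6.86 and 7.11.

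Cd74, the invariant chain, was abundant in adult islets on both of its probes. Probe ILMN_1221817 read 11.27 and 12.22 in adult islets and 7.17, 7.13, 7.25 and 7.36 at day 0. Day 1 arrays gave 6.996, 7.27 and 7.01, day 4 arrays 6.89 and 6.96, and stem cells 7.31 and 7.07. The second probe (ILMN_3089584) read 11.38 and 12.19 in adult islets and stayed between 6.99 and 7.56 on all other arrays. Neither probe had an adult value near any other array. The differences from day 0 were 4.51 ± 0.21 (adjusted p = 1.73e-07) and 4.43 ± 0.22 (adjusted p = 2.58e-07).

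The genes of H2-DM, which loads peptides, had small adult differences. H2-DMa was above background on all 13 arrays. It read 7.75 and 8.58 in adult islets, against 7.57, 7.54, 7.87 and 7.70 at day 0. Day 1 arrays gave 7.76, 8.12 and 7.76, day 4 arrays 7.70 and 7.60, and stem cells 8.19 and 7.29. Adult replicate 1 thus lay within the range of the progenitors. Its adult difference from day 0 was 0.50 ± 0.26 (adjusted p = 0.173; 95% interval of the difference from -0.08 to 1.07), which did not pass the test. H2-DMb1 read 7.27 and 7.67 in adult islets and 7.01 to 7.11 at day 0, and differed by 0.42 ± 0.13 (adjusted p = 0.0333), at least 1.17-fold against background. That call rests on adult replicate 2: without it the difference was 0.23. The call was also lost in 8 of the other alternative settings that tested this probe. Among them were only the groups compared in the fit (adjusted p = 0.0539) and the replicate number as a block (adjusted p = 0.117).

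Ciita, the co-activator of all these genes, was below background on every array. It read 7.09 and 7.08 in adult islets and 6.96, 7.08, 6.97 and 6.99 at day 0. Day 1 arrays gave 7.02, 6.98 and 6.997, day 4 arrays 7.04 and 6.997, and stem cells 7.01 and 6.88. Being dim on all arrays it was not tested, and 1 probe at background gives only an upper bound on its transcript. Values under the background level carry no order.

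Counted over all probes, 9 of the 11 class II probes, from 5 genes, were higher in adult islets than at day 0 and 0 were lower, where 15.1% of 14858 tested probes were called higher, 17.2% lower and 32.3% in either direction. The median difference of the class II probes was 3.63 against -0.05 for all tested probes, of which 6.81% were at least 2-fold higher. Against day 4, 8 of 11 from 4 genes were higher and 0 lower, where 6.87% of tested probes were called higher, 5.71% lower and 12.6% in either direction. Against stem cells 8 of 11, from 4 genes, were higher and 0 lower, where 21.7% were called higher, 23.4% lower and 45.2% in either direction. Both times the 4 genes were Cd74, H2-Aa, H2-Ab1 and H2-Eb1. These comparisons share the adult arrays. Of the 10 probes that passed the filter on dim values, the H2-Aa probe and 2 of the H2-Ab1 probes passed only with the help of the adult arrays. With no filter, when all 11 were tested, the counts were again 9, 8 and 8.

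**Figure D2:**
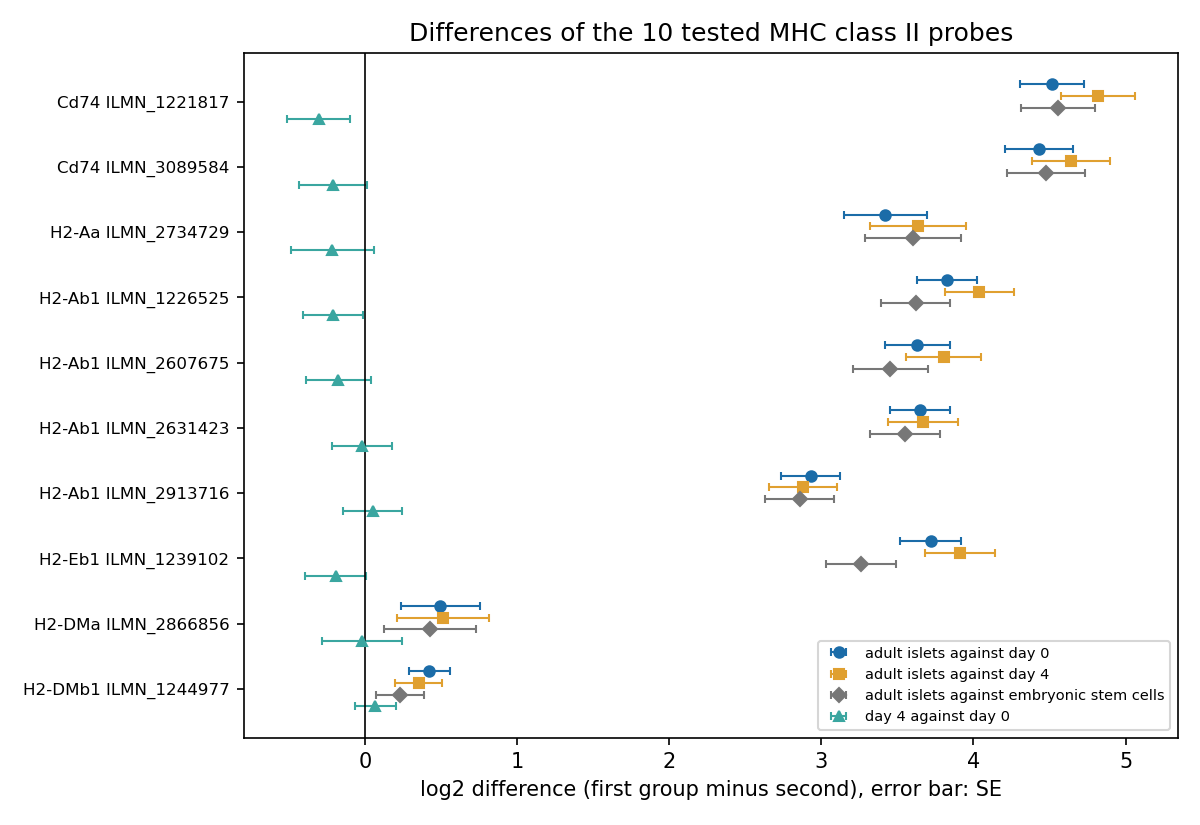
Log2 differences (x axis) with their SE for the 10 tested class II probes (y axis) in 4 comparisons, from the fit over all arrays. The 8 probes of Cd74, H2-Aa, H2-Ab1 and H2-Eb1 lie between 2.86 and 4.82 in the 3 adult comparisons, H2-DMa and H2-DMb1 between 0.23 and 0.51, and all 10 lie between -0.31 and 0.07 for day 4 against day 0.

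At day 4 no array was above background for any probe of Cd74, H2-Aa, H2-Ab1 or H2-Eb1, so the adult differences from day 4 are lower bounds. They were at least 22.6-fold and 23.3-fold for the 2 probes of Cd74, 10.02-fold for H2-Aa, 7.04-fold to 13.9-fold for the 4 probes of H2-Ab1 and 12.3-fold for H2-Eb1, with adjusted p from 6.46e-07 to 2.98e-05. H2-DMa differed by 0.51 ± 0.30 (adjusted p = 0.348) and H2-DMb1 by 0.35 ± 0.15 (adjusted p = 0.184), neither past the threshold. H2-DMb1 passed it under array weights (adjusted p = 0.0161). The log2 differences of the 8 probes from the 4 genes, over the 3 adult comparisons, ranged from 2.40 to 7.69 over 627 values under the alternatives. The highest adjusted p by limma was 0.00645. Relative to the main fit, the differences grew most when background was subtracted. That setting adds a constant to each intensity, so with the lower group at background the upper end is not an estimate of size.

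During differentiation itself the class II genes gave no call. Of 11 probes, 0 passed in day 1 against day 0 (lowest adjusted p = 0.692), in day 4 against day 0 (lowest 0.391) or in day 4 against day 1 (lowest 0.75) by limma, and 0 had an unadjusted p under 0.05. Of all tested probes, 1.62% were called higher and 1.97% lower in day 1 against day 0 (3.59% in either direction), 5.16% and 5.12% in day 4 against day 0 (10.3%), and 0.969% and 0.431% in day 4 against day 1 (1.4%). The largest estimate from day 0 to day 4 was that of Cd74 (ILMN_1221817), -0.31 ± 0.21, with a 95% interval from -0.77 to 0.16. Both day 4 arrays of that probe were below all 4 day 0 arrays, 2 of which exceeded background. A miss of the threshold this close to background does not show that levels were equal, since probes below background carry no order.

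Embryonic stem cells gave low but uneven class II values. H2-Eb1 was above background on both arrays (7.95 and 7.26) and its day 0 level was lower by an estimate of -0.46 ± 0.20 (adjusted p = 0.0831), which missed the threshold. Of 11 probes, 0 were called in day 0 against stem cells, where 23.7% of tested probes were called higher, 23.7% lower and 47.4% in either direction. By limma 1 of them, H2-Eb1, had an unadjusted p under 0.05. Between the 2 stem cell arrays, replicate 1 was higher by 0.90 for H2-DMa, by 0.69 for H2-Eb1 and by 0.48 or less for the other 9 probes. The differences of adult islets from stem cells were 4.55 ± 0.24 for Cd74 (ILMN_1221817; adjusted p = 1.47e-07) and 3.26 ± 0.23 for H2-Eb1 (adjusted p = 1.08e-06), and at least 10.02-fold for H2-Aa (adjusted p = 4.88e-06). H2-DMa differed by 0.43 ± 0.30 (adjusted p = 0.288). Without stem cell replicate 1 that difference was 0.88 (adjusted p = 0.0363).

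The 2 adult islet samples differed in class II level by more than most of the transcriptome. Replicate 2 exceeded replicate 1 by 1.36 for H2-Aa, 0.95 and 0.81 for Cd74, 0.78 to 0.92 for H2-Ab1, 0.67 for H2-Eb1, 0.82 for H2-DMa and 0.39 for H2-DMb1 on the log2 scale, while Ciita differed by -0.02. Over all 14858 tested probes the median of this difference was -0.01 with an SD of 0.22, and 1.76% reached 0.5. All 7 measured pan leukocyte genes and all 16 measured macrophage and dendritic genes were also higher in replicate 2, with medians of 1.09 and 0.49. So were all 4 T and NK cell genes (median 0.47), 13 of 14 class I presentation genes (0.16) and 10 of 11 other class II and loading genes (0.28). Fewer were higher among B cell genes (2 of 4, median 0.17), interferon gamma path genes (3 of 6, -0.03) and class II promoter factors (1 of 5, -0.24). The 5 islet hormone genes had a median of -0.03, 10 endothelial genes -0.04 and 9 acinar genes -0.31. With 1 array on each side these are values without a test, and the part of leukocyte RNA in the class II difference was not tested.

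**Figure D3:**
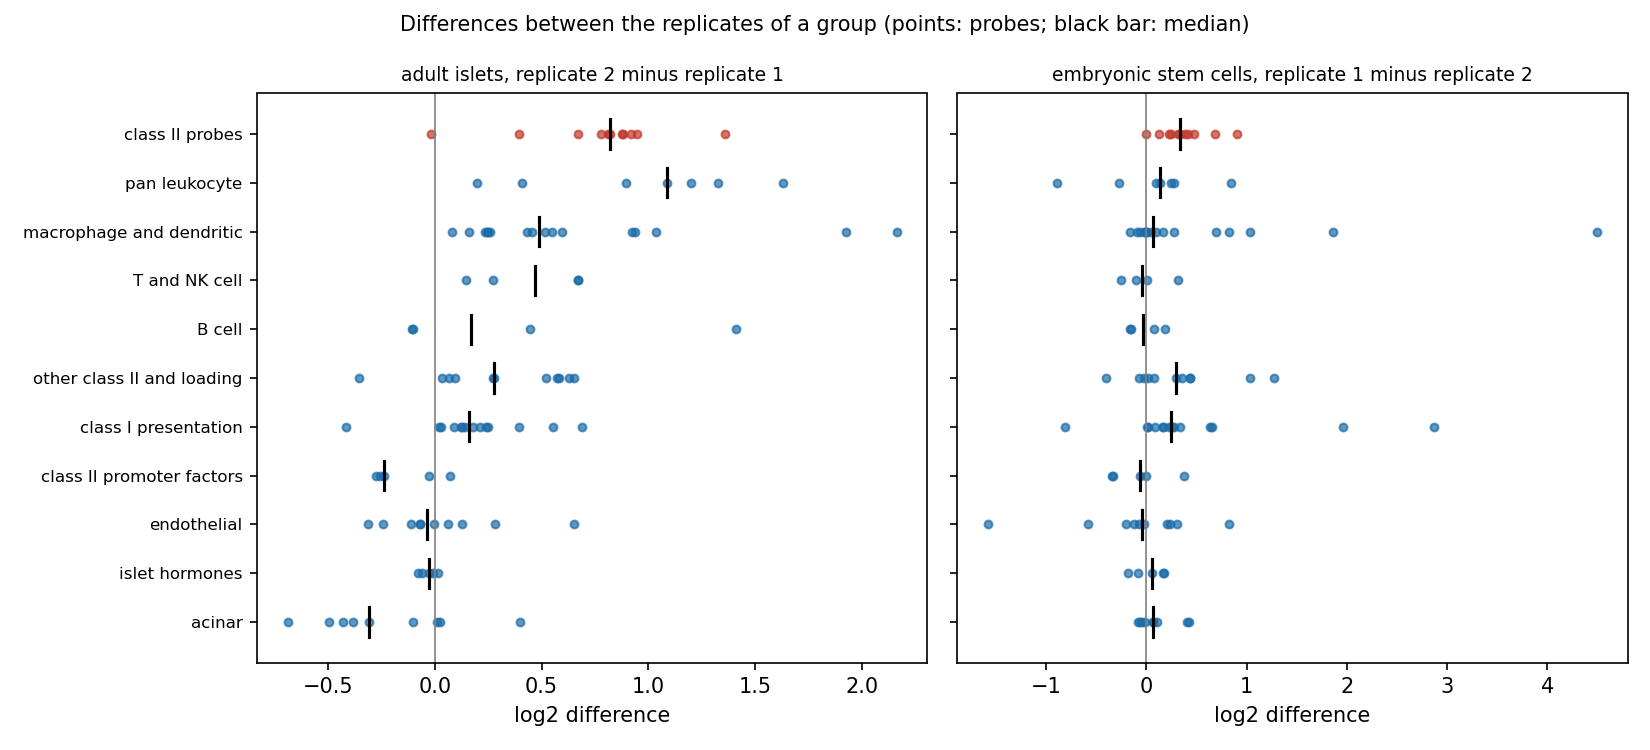
Log2 differences (x axis) between the 2 adult islet arrays (left) and the 2 stem cell arrays (right) for the class II probes and for genes of other lists (y axis); points are probes and black bars medians. In adult islets the class II probes reach 1.36 and the pan leukocyte genes have a median of 1.09, while islet hormones have a median of -0.03.

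Leukocyte markers were compared beside the class II genes because macrophages, dendritic cells and B cells carry class II constitutively. Of 28 macrophage and dendritic genes, 25 were on the array and 16 were measured above background. In adult islets against day 0, 6 of 16 were higher and 2 were lower (15.1% and 17.2% of tested probes), with a median of 0.65. Cd14, a co-receptor for bacterial lipopolysaccharide, differed by 2.54 ± 0.24 (adjusted p = 2.84e-05), C1qb by 1.26 ± 0.20 (adjusted p = 9.08e-04) and C1qa by 1.20 ± 0.12 (adjusted p = 4.03e-05), both subunits of complement C1q. The 2 lower genes were the mannose receptor Mrc1, at -0.47 ± 0.15 (adjusted p = 0.0317), and the fractalkine receptor Cx3cr1, below background on both adult arrays and at least 1.18-fold lower (adjusted p = 0.00431). The probes of Mrc1 and Cx3cr1 passed the filter only with the help of the day 0 arrays, where they are high. Lyz2 (0.75 ± 0.58, adjusted p = 0.354), C1qc (0.34 ± 0.17, adjusted p = 0.161) and the signalling adaptor Tyrobp (0.24 ± 0.13, adjusted p = 0.194) did not pass. Without adult replicate 2, 3 of the 6 higher calls were kept, and without replicate 1, 0 of the 2 lower calls.

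At day 0, 13 to 15 of the macrophage and dendritic genes were above background on each array, against 2 to 6 at day 1, 3 to 4 at day 4, 14 to 15 in adult islets and 0 to 6 in stem cells. C1qb read 8.02, 7.75, 7.49 and 8.21 at day 0, and 8.83 and 9.43 in adult islets, with day 1 and day 4 arrays between 6.93 and 7.11. Mrc1 read 7.53, 7.82, 7.35 and 7.89 at day 0 and 7.05 and 7.29 in adult islets. On the same 4 day 0 arrays H2-DMa passed background on 4, the probes of Cd74 on 2 and 3, H2-Aa and H2-Eb1 on 1 each, those of H2-Ab1 on 0 or 1, and H2-DMb1 and Ciita on 0. In day 1 against day 0, 0 of 16 macrophage and dendritic genes were higher and 5 lower, where 1.62% and 1.97% of tested probes were called. C1qb, below background on all day 1 arrays, was at least 1.54-fold lower there (adjusted p = 0.0191), and leaving out day 1 replicate 1 ended all 5 calls. In day 4 against day 0, 1 was higher (C1qa) and 5 lower, where 5.16% and 5.12% were called, and 0 of these 6 calls were kept without day 4 replicate 1.

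The summed intensity of the macrophage and dendritic list, on the linear scale, ran from 4616 to 6441 at day 0, 3327 to 4200 at day 1, 3589 to 3673 at day 4, 7120 to 14996 in adult islets and 3295 to 6783 in stem cells. Csf1r, Cd68 and Mpeg1 are not analysed here. Itgam, Itgax, Ccr2, Flt3, Xcr1, Batf3, Spi1 and Cd209a, among them defining markers of monocytes and dendritic cells, were below background on all 13 arrays, as was the common leukocyte antigen Ptprc. Of 7 measured pan leukocyte genes, 3 were higher in adult islets than at day 0 (15.1% of tested probes) and 0 lower (17.2%). They were Laptm5 at 1.64 ± 0.39 (adjusted p = 0.00814), Cd52 at 1.42 ± 0.29 (adjusted p = 0.00348) and Cd53 at 0.99 ± 0.26 (adjusted p = 0.014), and 0 of them stayed called without adult replicate 2. Laptm5, a lysosomal protein of blood cells, read 10.87 and 11.76 in stem cells and 9.78 and 11.11 in adult islets. The sum of this list ran from 1623 to 2209 at day 0, 1110 to 1269 at day 1, 1090 to 1126 at day 4, 2523 to 5544 in adult islets and 3387 to 4753 in stem cells. How much of the class II signal came from leukocytes was not tested.

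**Figure D4:**
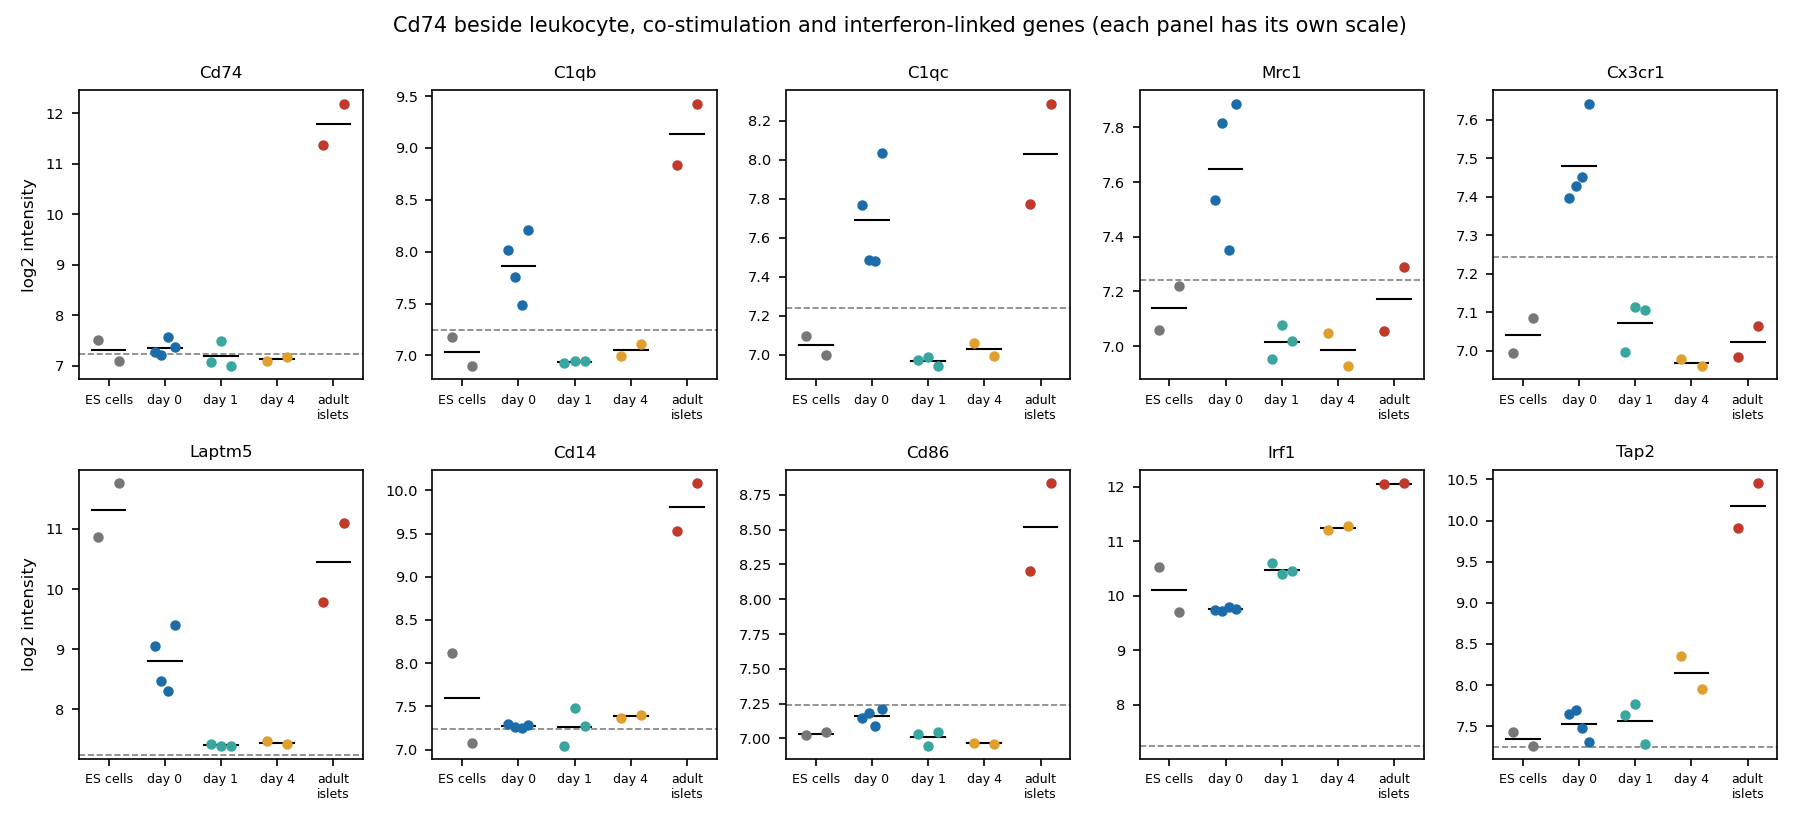
Log2 intensity (y axis, own scale in each panel) of Cd74 (probe ILMN_3089584) beside 9 other genes on all 13 arrays by group (x axis); points are arrays, black bars group means, and the dashed line is the background level. C1qb, C1qc, Mrc1 and Cx3cr1 are above background on all 4 day 0 arrays, Cd86 only on the 2 adult arrays, and Irf1 has array values from 9.72 to 9.79 for day 0 up to 12.04 and 12.07 for adult islets.

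B and T lymphocyte genes were mostly near background. Of 4 measured B cell genes, 1 was higher in adult islets than at day 0, where 15.1% of tested probes were called higher. This was Cd79a, part of the B cell receptor, by 0.54 ± 0.10 (adjusted p = 0.00249). Like that of Il7r below, the Cd79a probe passed the filter only with the help of the adult arrays. Cd79b, the partner of Cd79a, read 7.24 and 8.65 in the 2 adult samples and missed the threshold (0.77 ± 0.29, adjusted p = 0.0634). Ms4a1 and Pax5, defining B cell genes, were below background on all arrays, as were Cd4 and Cd8a of T cells. In contrast, Fcrla of the B cell list and Cd3d of T cells passed background on adult replicate 2 alone. Fcrla read 7.85 there and 7.19 in adult replicate 1. Cd3g and Cd2 of T cells read 7.75 and 7.78 in adult replicate 2, against 7.08 and 7.11 in replicate 1. At day 0, Cd3g read 7.32, 7.42, 7.33 and 7.25, and Cd2 lay between 7.08 and 7.28. Cd3e of T cells and Cd22 of the B cell list were also above background on all 4 day 0 arrays. Cd22 read 6.99 and 7.44 in adult islets, and Cd3e 7.29 and 7.43. All 4 measured T and NK cell genes were higher in replicate 2, and 2 of the 4 measured B cell genes. Of 4 measured T and NK cell genes, Il7r alone was called, at least 1.14-fold higher in adult islets than at day 0, where it was below background (adjusted p = 0.0242), a call lost without adult replicate 2. The summed intensity of the B cell list ran from 1095 to 1197 at day 0, 1053 to 1127 at day 1, 1040 to 1048 at day 4, 1201 to 1565 in adult islets and 1124 to 1131 in stem cells, and that of the T and NK cell list from 1242 to 1273, 1153 to 1250, 1175 to 1187, 1217 to 1583 and 1216 to 1236 in the same order.

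Endothelial genes, markers of capillaries, were mostly higher in adult islets too: 8 of 10 measured were higher than at day 0 (15.1% of tested probes) and 0 lower (17.2%). Plvap differed by 3.08 ± 0.42 (adjusted p = 3.01e-04), Emcn by 2.93 ± 0.22 (adjusted p = 3.90e-06) and Flt1 by 2.76 ± 0.30 (adjusted p = 7.06e-05). Their summed intensity was 9196 to 9521 in adult islets, 2197 to 3837 at day 0, 1973 to 2510 at day 1, 2531 to 2892 at day 4 and 3663 to 4282 in stem cells. The sums of the 2 adult arrays were close, while every class II probe above background was higher in replicate 2. The part of endothelial RNA in the class II result was not tested.

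Of 7 listed factors that bind class II promoters, 5 were measured, and Rfx5 (6.96 to 7.19) and Nfya were below background on all arrays. In adult islets against day 0, 0 were higher and 1 was lower, where 15.1% and 17.2% of tested probes were called. The lower gene was the NF-Y subunit Nfyc, from 11.72 ± 0.35 (SD, n = 4) to 11.06 ± 0.17 (SD, n = 2), a difference of -0.66 ± 0.20 (adjusted p = 0.0285). That call was lost without either adult replicate. Rfxap, an RFX subunit, differed by -0.58 ± 0.23 (adjusted p = 0.0748) and Rfxank, below background on both adult arrays, by -0.24 ± 0.09 (adjusted p = 0.0612). Against day 4, 0 of 5 were called, where 12.6% of tested probes were called in either direction.

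The interferon gamma path, which induces Ciita, was represented by 6 measured genes. The transcription factor Irf1 read 9.72 to 9.79 on the day 0 arrays, 10.60, 10.39 and 10.45 on the day 1 arrays, 11.21 and 11.28 on those of day 4, and 12.04 and 12.07 in adult islets. From day 0 to adult islets the arrays of the groups did not overlap; the stem cell arrays read 10.53 and 9.69. Adult islets differed from day 0 by 2.31 ± 0.18 (adjusted p = 5.30e-06) and day 4 from day 0 by 1.497 ± 0.18 (adjusted p = 7.47e-04). The smaller steps, 0.73 ± 0.16 for day 1 against day 0 (adjusted p = 0.0293) and 0.81 ± 0.20 for adult islets against day 4 (adjusted p = 0.0248), were each lost without either adult replicate, among other arrays. The step from day 1 to day 4, 0.76 ± 0.19 (adjusted p = 0.0811), did not pass. At day 4 Irf1 was called higher than at day 0, and all probes of the 4 abundant class II genes were below background on both arrays. The part of the interferon gamma path in the class II result was not tested. The kinase Jak2 was the other gene called in adult islets against day 0 (1.46 ± 0.26, adjusted p = 0.0019). Of the 6 genes, 2 were thus higher and 0 lower, where 15.1% and 17.2% of tested probes were called. The receptor chain Ifngr1 (0.41 ± 0.20, adjusted p = 0.141) and Irf2 (0.26 ± 0.18, adjusted p = 0.313) did not pass.

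Most genes of class I presentation, the parallel path that shows peptides from inside the cell, were also higher in adult islets. Of 14 genes, 11 were higher and 1 lower in adult islets than at day 0 (15.1% and 17.2% of tested probes), with a median of 0.86. The peptide transporter subunit Tap2 differed by 2.65 ± 0.19 (adjusted p = 3.85e-06), B2m by 3.36 ± 0.64 (adjusted p = 0.0026), the immunoproteasome subunit Psmb9 by 1.87 ± 0.15 (adjusted p = 7.86e-06) and the heavy chain H2-K1 by 0.71 ± 0.14 (adjusted p = 0.00326). Heavy chain genes are near-identical in sequence, so probes such as that of H2-K1 may read relatives. Nlrc5, the class I counterpart of Ciita, was below background on all 11 other arrays and read 7.69 and 7.81 in adult islets. Its difference from day 0 was 0.80 ± 0.09 (adjusted p = 1.17e-04), at least 1.42-fold. The Nlrc5 probe passed the filter only through the adult arrays, where it is high. The lower gene was the proteasome activator Psme1 (-0.98 ± 0.17, adjusted p = 0.00171). Against day 4, 6 of 14 were higher and 0 lower, where 6.87% and 5.71% of tested probes were called. In day 4 against day 0, 2 were higher (Psmb9 and Psmb10) and 1 lower, calls lost without day 4 replicate 1. For day 4 against day 0 the shares of tested probes were 5.16% higher and 5.12% lower. B2m was 2.44 higher in adult islets than at day 4 (adjusted p = 0.0554), short of the threshold.

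The remaining class II and loading genes, from other chains through lysosomal proteases to co-stimulators, were all 17 on the array, and 11 were measured. In adult islets against day 0, 1 was higher and 0 lower, where 15.1% and 17.2% of tested probes were called. That gene was Cd86, a co-stimulatory ligand of antigen-presenting cells, at 8.21 and 8.83 in adult islets and below background on all other arrays. It was at least 2.42-fold higher (adjusted p = 5.05e-05), and its probe passed the filter only through the adult arrays. Cathepsin S, Ctss, the protease that trims the invariant chain in presenting cells, read 7.49 and 7.77 in adult islets and 7.18, 7.18, 7.24 and 7.65 at day 0 (0.32 ± 0.15, adjusted p = 0.119). Cathepsin B (Ctsb) was abundant on all arrays, between 11.22 and 13.16, and did not pass (0.49 ± 0.26, adjusted p = 0.181). H2-Ob was above background on 1 array, adult replicate 2, at 7.63. Against day 4, Cd86 and Cd40 were higher, Cd40 not without adult replicate 2, and the lysosomal thiol reductase Ifi30 was lower, at -1.33 ± 0.33 (adjusted p = 0.0243), a call lost without adult replicate 1. Against stem cells, adult islets had 4 of 11 higher, namely Ctss, Ctsb, Cd86 and Cd40, and 3 lower, namely the proteases Ctsl and Lgmn and Ifi30, where 21.7% and 23.4% of tested probes were called. The Ctss probe, too, passed the filter only with the help of the adult arrays. In day 0 against stem cells 1 was higher, Cd40, and 3 were lower, Ctsl, Lgmn and Cd80, where 23.7% were called in each direction. The probes of Ctsl and Cd80 passed the filter only with the help of the stem cell arrays, where they are high. In both comparisons with stem cells, calls in each direction were lost when single adult or stem cell arrays were left out.

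Among 10332 named genes, those most like the class II chains over the 13 arrays were found by Pearson correlation with the mean of Cd74, H2-Aa, H2-Ab1 and H2-Eb1. The closest were Tnfrsf11b (0.996), Vip (0.995), Gvin1 (0.994), Cxcl10 (0.994), Ica1l (0.994), Gbp2 (0.994), Selp (0.993), Slc15a3 (0.993), Lrg1 (0.993) and Il1b (0.991). Such values mostly record that the 2 adult arrays were high and the 11 others low, and they are given as a description. The class II genes themselves stood at 0.998 for Cd74, 0.999 for H2-Ab1, 0.994 for H2-Eb1 and 0.992 for H2-Aa, which entered the mean, and at 0.75 for H2-DMb1 and 0.58 for H2-DMa, which did not. Vip, a neuropeptide, read 10.85 and 11.74 in adult islets and 6.87 to 6.98 on all other arrays. Cxcl10, an interferon-induced chemokine, read 10.26 and 10.90, with all other arrays between 6.90 and 7.42.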

How the data were processed

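Total RNA was extracted with Trizol and labelled as biotinylated cRNA, per the labels' protocols. The values used are the authors' deposited log2 intensities, already normalized across arrays when deposited; the method and the log base are not given in the sources used here, and base 2 was read from their range, 6.73 to 15.20. A second table with 26 columns that match no sample label was not used, so detection p-values and scanner background were not available for a filter. Background was set at 7.24, that is 5 SD over the most frequent value (6.98), with the SD taken from values below it, and probes above it on at least 2 of 13 arrays were tested (14858, 57.8%). Gene names come from the platform annotation: 23978 probes name 1 gene, 1719 none and 0 several.

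Group means of all 5 groups were estimated in 1 model over the 13 arrays (lmFit and eBayes of limma 3.58.1, R 4.3.3), leaving 8 degrees of freedom to which the prior added 2.81. P-values of each of 7 comparisons were adjusted by Benjamini-Hochberg over all probes tested, and a probe was called under 0.05. Differences are given ± SE. All probes of the class II genes were kept apart; for genes of the 13 other lists (145 genes, 135 on the array) the brightest passing probe was used. Where no array of the lower group passed background, the fold is a bound against the background level. The number of arrays limits the precision. The class II genes and the lists were chosen with earlier results of these data known. Named were all class II genes, up to 3 called members of a list with the largest differences in a comparison, 13 fixed genes, and the 10 genes most alike; other genes were named after their values were seen. Alternatives were filters, background levels, scalings, variance models, array weights, the groups in the fit, the replicate number as a block, and leaving out arrays. The fit was tested on simulated data. Figures were drawn with matplotlib 3.10.9.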

Additional observations from a re-analysis of the deposited data

Results flagged for a closer look

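Outlying arrays were looked for in the day 0 group, the only one with 4 arrays, over 20 probes: the 11 class II probes, and others of the genes discussed. In 2 of them 1 array stood apart by Dixon's criterion, which sets the gap to the nearest array against the group's whole range and which chance gives in about 1 of 20 groups. For the H2-Ab1 probe ILMN_2631423, day 0 replicate 2 was lowest at 6.87 against 7.08 to 7.12 for the others, a ratio of 0.856, and all 4 values were below background. For Ctss, cathepsin S, day 0 replicate 4 was highest at 7.65 against 7.18 to 7.24 for the others, a ratio of 0.873. On the same array H2-Aa read 7.35, its highest day 0 value, and H2-Eb1 and Cd74 probe ILMN_1221817 were also highest there. Cd74 probe ILMN_3089584, H2-Ab1 probes ILMN_1226525 and ILMN_2607675, and H2-DMa were instead highest on day 0 replicate 3. No explanation was tested for either outlying array.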

How the results depend on the processing

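Each result was recomputed under 27 alternatives, except where an alternative did not test the probe. Of 653 values for the 25 class II differences that were called, 644 kept direction and call, and 9, all of H2-DMb1 in adult islets against day 0, lost the call. Testing 1 probe per gene, which leaves fewer probes by construction, gave 5, 4 and 4 class II probes called in adult islets against day 0, day 4 and stem cells in place of 9, 8 and 8. Asking for background to be passed on 4 arrays removed 3 probes and gave 5 against day 4 and 5 against stem cells. In day 0 against stem cells, subtracting background gave 1 call, H2-Eb1 (-1.33, adjusted p = 0.0249). Leaving out single arrays gave 8 to 9, 8 to 8 and 8 to 9 calls in the adult comparisons, 0 to 1 in day 0 against stem cells (1 without stem cell replicate 2 or either adult replicate) and 0 to 0 in the 3 progenitor comparisons. No called difference reversed. Of 6708 values for other listed genes, 564 lost the call.

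Deviations from the group mean in same-numbered arrays of different groups had a median correlation of -0.03 over 21 pairs, 2 of them over 0.1. Over 45 pairs of unlike number the median was 0.02, with 8 over 0.1. Some day 0 and day 1 arrays did deviate together. The correlation was 0.60 for day 0 replicate 3 with day 1 replicate 2, and 0.387 for replicates 1 of both days. For day 0 replicate 4 with day 1 replicate 3 it was 0.386. Whether such arrays shared a preparation is not given, and the fit treats all arrays as independent. With the replicate number as a block the class II counts were 8, 8 and 8 in the adult comparisons and 0 in the other 4.

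Counts over all probes moved more: day 4 against day 0 called 1527, 228 without day 4 replicate 1 and 4064 with array weights. Day 4 against day 1 called 208, from 8 without day 4 replicate 1 to 4667 with array weights, and 17 with only those groups in the fit. Day 1 against day 0 called 534, 187 with only those groups and 1543 with weights. Adult islets against day 4 called 1870, 825 without day 4 replicate 2 and 5497 with only those groups. Adult islets against day 0 called 4802, and 2495 without adult replicate 2. Groups of 2 arrays, and levels close to background, limit what can be told for Ciita, H2-DMb1 and all class II genes in progenitors.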
